A study of Mus musculus with 2 samples.

Results

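The regions described here are the 2834 promoter peaks that CUT&RUN with the GFP antibody listed and that no peak of the SRCAP antibody overlapped by as much as 1 bp. They were taken from the 28718 peaks of the GFP list, of which 8718 had their midpoint in a promoter window. The transcription start site (TSS) of every GENCODE vM21 transcript on GRCm38 was given such a window, which began 1000 bp upstream and ended 500 bp downstream. The 2834 GFP-only promoter peaks made up 32.5% of the promoter peaks of that list (95% Wilson interval 31.5% to 33.5%) and 22.5% of its 12580 GFP-only peaks. The remaining 5884 promoter peaks overlapped a SRCAP peak and are called shared, and the SRCAP list of 28167 peaks held 2850 promoter peaks of its own that overlapped no GFP peak.

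Both libraries were made from SYAT cells, a mouse embryonic stem cell line derived from CGR8 through 1 homozygous knock-in clone, which was transduced, drug selected and then sorted for cells that lost YPet under auxin. In these cells both alleles of Srcap are fused to YPet, a yellow fluorescent protein, together with an auxin-inducible degron (AID), and the auxin receptor OsTir1 is expressed from a lentivirus. The GFP antibody recognises the YPet part of the fusion and the SRCAP antibody recognises the protein, and the comparison asked at which promoters only the first of these routes gave a listed peak. The study kept control SYAT cells in auxinole, an inhibitor of the auxin receptor, but the treatment of the individual libraries is not in the labels. There was 1 library per antibody, so no p-value is given, all intervals cover counting error only, and what came from the antibody, the library or its depth cannot be told apart. The lists hold no read counts, so depth is unknown, and a promoter without a SRCAP peak is one where none was listed, not one shown to lack SRCAP.

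SRCAP is the ATPase of a remodelling complex that replaces histone H2A in nucleosomes by the variant H2A.Z. H2A.Z typically flanks the nucleosome-depleted stretch at the TSS of active genes, and in embryonic stem cells it also lies at promoters of developmental genes that are held inactive. CUT&RUN uses a nuclease tethered to the antibody to release the DNA beside the bound protein, so a peak marks a stretch where such fragments gathered.

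The following 200 bp stretches of GRCm38, plus strand, lie at the midpoints of 9 GFP-only promoter peaks. Ddt, Plekhg2 and Rp2 had the highest scores among peaks at protein-coding genes whose 200 bp held no annotated UTR base. Fanca, Plcxd2, Abi1 and Mrps17 were the highest scoring of those that held an NFY, an SP/KLF, an NRF1 or a TATA motif. Utf1 (score 54) and H2afv (score 45) were taken from genes of the SRCAP, Tip60, H2A.Z and pluripotency lists under the same condition. They were not the highest scoring of these lists, as the peak at Epc1 (score 116) is not among the printed stretches. Capitals mark exact matches to any of 14 short motifs that are described further on.
Ddt, chr10:75773527-75773726: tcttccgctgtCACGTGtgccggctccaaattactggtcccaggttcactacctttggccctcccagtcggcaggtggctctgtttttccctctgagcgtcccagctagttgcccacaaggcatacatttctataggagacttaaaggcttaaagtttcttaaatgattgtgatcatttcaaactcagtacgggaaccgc
Plekhg2, chr7:28372712-28372911: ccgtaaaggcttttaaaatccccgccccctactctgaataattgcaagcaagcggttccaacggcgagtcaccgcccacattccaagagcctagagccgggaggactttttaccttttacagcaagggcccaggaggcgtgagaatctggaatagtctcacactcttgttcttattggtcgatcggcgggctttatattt
Rp2, chrX:20364215-20364414: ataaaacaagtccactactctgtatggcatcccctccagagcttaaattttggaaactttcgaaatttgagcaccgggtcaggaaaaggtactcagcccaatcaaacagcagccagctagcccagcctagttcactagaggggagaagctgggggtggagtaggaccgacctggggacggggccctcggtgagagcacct
Fanca, chr8:123318582-123318781: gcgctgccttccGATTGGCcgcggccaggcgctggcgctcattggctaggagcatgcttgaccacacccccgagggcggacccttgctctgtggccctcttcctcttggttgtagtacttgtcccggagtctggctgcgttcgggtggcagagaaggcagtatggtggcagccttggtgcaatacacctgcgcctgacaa
Plcxd2, chr16:46010353-46010552: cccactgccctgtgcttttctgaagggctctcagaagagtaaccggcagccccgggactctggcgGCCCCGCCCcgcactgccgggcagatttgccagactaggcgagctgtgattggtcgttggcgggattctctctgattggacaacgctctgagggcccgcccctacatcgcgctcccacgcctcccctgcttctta
Abi1, chr2:23040320-23040519: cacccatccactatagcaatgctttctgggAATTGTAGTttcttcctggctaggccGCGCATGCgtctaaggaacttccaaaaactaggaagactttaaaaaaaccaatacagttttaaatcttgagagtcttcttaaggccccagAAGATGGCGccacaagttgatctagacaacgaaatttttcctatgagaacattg
Mrps17, chr5:129715282-129715481: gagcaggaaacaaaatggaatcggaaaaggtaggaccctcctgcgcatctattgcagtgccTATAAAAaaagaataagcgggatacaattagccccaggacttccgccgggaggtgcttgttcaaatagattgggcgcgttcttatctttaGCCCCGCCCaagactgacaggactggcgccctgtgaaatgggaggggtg
Utf1, chr7:139943567-139943766: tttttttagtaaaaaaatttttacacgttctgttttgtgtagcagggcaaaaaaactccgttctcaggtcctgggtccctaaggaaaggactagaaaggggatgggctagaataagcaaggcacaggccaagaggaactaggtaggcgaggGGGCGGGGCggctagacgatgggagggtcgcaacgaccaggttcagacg
H2afv, chr11:6443902-6444101: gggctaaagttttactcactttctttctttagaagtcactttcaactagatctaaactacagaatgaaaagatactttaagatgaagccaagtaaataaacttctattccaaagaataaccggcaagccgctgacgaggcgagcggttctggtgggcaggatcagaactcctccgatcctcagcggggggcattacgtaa
Of these stretches, Plekhg2, Rp2 and H2afv held none of the 14 motifs. The Ddt window held an E-box, the Mrps17 window held a TATA motif and an SP/KLF motif, and the Abi1 window held a ZNF143, an NRF1 and a YY1 motif. Across all GFP-only promoter peaks, 22.02% held at least 1 of the motifs (20.5% to 23.6%), compared with 33.3% of the shared promoter peaks, 30.2% of the SRCAP-only promoter peaks and 27.3% of the windows at all annotated TSSs.

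GFP-only promoter peaks were low and narrow within their list. Their median score was 36, with quartiles of 28 and 49 and a highest value of 177, whereas shared promoter peaks had a median of 64 and quartiles of 43 and 100. The score is a whole number that the authors deposited for each peak, with a minimum of 13, and its meaning is not stated. The median width was 245.5 bp (quartiles 203 and 329 bp), against 384 bp for shared promoter peaks. The share of promoter peaks that were GFP-only fell from 61.0% among scores of 13 to 34 to 40.7% among scores of 35 to 52, 22.9% among scores of 53 to 81 and 4.78% above that. Because score and overlap moved together, part of the shares given below was also compared within 4 score ranges, cut at the quartiles of the GFP-only scores. The shares in introns, UTRs and other annotated places, the gaps to SRCAP peaks and the split by SRCAP peaks at the gene were not compared in this way. The highest of the 4 ranges had no upper limit. It held 701 GFP-only peaks with scores of 50 to 177 and 3921 shared peaks with scores up to 38527. Score was therefore not matched within that range.

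**Figure D1:**
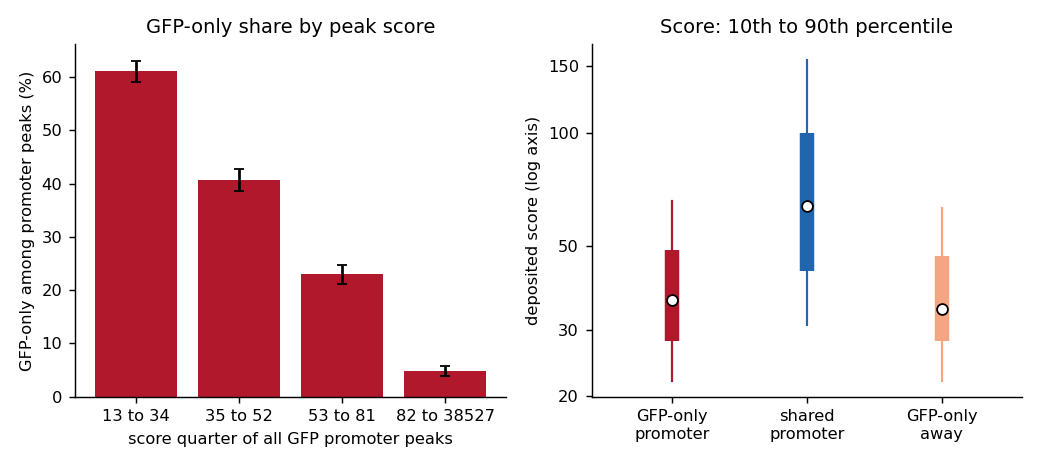
Left, the percent of GFP promoter peaks that were GFP-only in each of 4 ranges of the deposited score, with 95% Wilson intervals. It falls from 61.0% to 4.78%. Right, the score on a log axis for 3 kinds of GFP peak (circle, median; thick bar, quartiles; thin line, 10th to 90th percentile), with medians of 36, 64 and 34.

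The highest score, 177, belonged to a peak of 383 bp at chr10:75773436-75773818, 213 bp upstream of the nearest TSS of Ddt, which encodes D-dopachrome tautomerase, a relative of the cytokine MIF. Its midpoint also lay in an intron of an annotated transcript, and the nearest SRCAP peak was 6992 bp away. Plekhg2, a guanine nucleotide exchange factor, had a peak of score 147 only 190 bp wide, also 213 bp upstream. Rp2, an activator of the GTPase ARL3, had a peak of score 140 on the X chromosome, 322986 bp from the nearest SRCAP peak. Fen1, the flap endonuclease that processes Okazaki fragments, had a peak of score 136 with its midpoint 16 bp upstream of the TSS, in a UTR, and 70 bp downstream of a TSS of Tmem258 on the other strand. Vbp1, a prefoldin subunit and also on the X chromosome, had a peak of score 127 with its midpoint in coding sequence, 87 bp downstream of the TSS. Dnm1l, the GTPase of mitochondrial fission, had a peak of score 121, and Nid2, a basement membrane nidogen, one of score 120. The other 3 of the 10 highest scores lay at noncoding or pseudogene transcripts, AC126031.1 (131), AC132253.9 (127) and Gm17382 (123). In all 10 the nearest SRCAP peak was more than 1 kb away.

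The 104 GFP-only promoter peaks with scores above 81 differed from the 2070 shared promoter peaks with scores above 81. GFP-only scores ended at 177 and shared scores at 38527, so score was not matched in this comparison. Of these 104, 24.0% lay in CpG-rich sequence (defined with the GC content below) against 43.4% of shared peaks (difference -19.3 points, -26.8 to -10.1). They lay at bidirectional promoters in 5.77% against 12.6% (difference -6.79 points, -10.2 to -0.40) and covered the nearest TSS in 47.1% against 68.8% (difference -21.7 points, -31.2 to -11.9). A SRCAP peak within 1 kb was found for 10.6% of them (6.01% to 17.95%) and for 18.2% of the lower scoring GFP-only promoter peaks (16.8% to 19.7%), a difference of -7.59 points whose interval nearly reached 0 (-12.4 to -0.083).

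The widest GFP-only promoter peak measured 1016 bp at Nbeal2, a gene needed for platelet alpha granules, and had a score of only 47. Rpl39 (927 bp, score 35) and Rpl9 (816 bp, score 28), which encode proteins of the large ribosomal subunit, Gm37494 (904 bp, score 51) and Arhgap1 (829 bp, score 74) followed. None of these 5 had a score among the 10 highest.

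GFP-only promoter peaks lay farther from the TSS than either comparison group. Their median midpoint was 122 bp upstream (quartiles 326 bp upstream and 82.75 bp downstream), against 89 bp upstream for shared and 60 bp upstream for SRCAP-only promoter peaks. Only 25.1% lay within 100 bp of the TSS, compared with 37.6% of shared peaks (difference -12.5 points, -14.5 to -10.4) and 38.2% of SRCAP-only peaks (difference -13.2 points, -15.5 to -10.8). Peaks more than 250 bp upstream made up 32.1%, against 22.3% and 22.9%. These differences kept their direction in each of the 4 score ranges, where the one for the 100 bp limit ran from -12.0 to -8.29 points and the one for more than 250 bp upstream from 8.37 to 9.66 points. The peak covered the nearest TSS in 33.6%, against 59.8% of shared peaks (difference -26.2 points), and from -24.7 to -12.1 points within score ranges. GFP-only peaks by definition overlap no SRCAP peak, and SRCAP promoter peaks lay mostly near the TSS, as given further on. Distance from the TSS and coverage of it, here and among scores above 81, are therefore partly set by the definition. How far was not tested.

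The distribution of GFP-only peaks around the TSS had 2 rises with a lower value between them. The 100 bp just upstream of the TSS held 11.4% (10.2% to 12.6%), while the 100 bp before it held 13.2% (12.0% to 14.5%) and the first 100 bp downstream held 13.5% (12.3% to 14.8%). Shared and SRCAP-only peaks were instead most frequent in the 100 bp just upstream, at 19.9% and 21.8%. How far the exclusion of SRCAP overlaps set the lower GFP-only value there was not tested. Of GFP-only peaks 36.0% had a midpoint downstream of the TSS, and of shared peaks 31.4%, a difference of 4.59 points (2.47 to 6.72) that ranged from -0.09 to 6.67 points over the score ranges and was 0.24 points (-3.09 to 3.72) once peaks below the list's median score were left out.

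**Figure D2:**
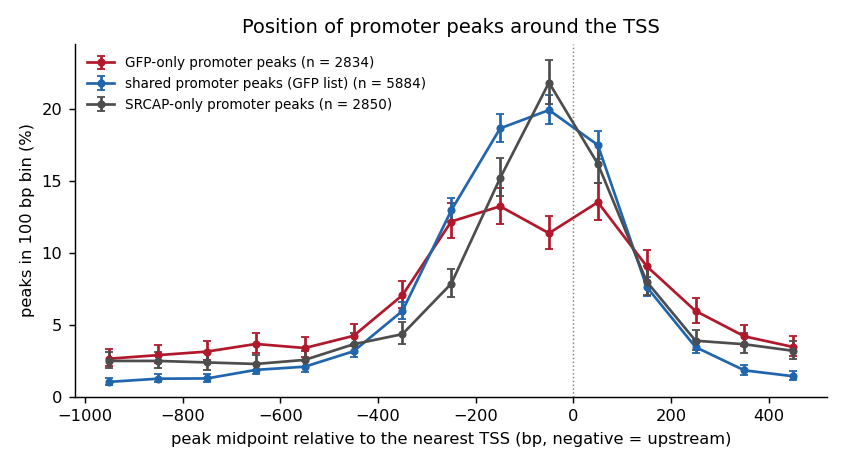
Percent of promoter peaks per 100 bp of distance between peak midpoint and nearest TSS (bp, negative upstream), with 95% Wilson intervals, for GFP-only, shared and SRCAP-only promoter peaks. GFP-only peaks hold 11.4% in the bin just upstream of the TSS, where the other groups hold 19.9% and 21.8%.

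The midpoint of a GFP-only promoter peak was placed in an intron in 32.3%, in coding sequence in 6.10%, in a UTR in 13.9%, in an exon of a noncoding transcript in 12.4% and outside annotated genes in 35.4%. Introns were more frequent than for shared promoter peaks (22.1%, difference 10.2 points, 8.15 to 12.2) and UTRs less frequent (20.003%, difference -6.14 points, -7.74 to -4.48).

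The nearest SRCAP peak was usually far away. The median gap from a GFP-only promoter peak to the nearest SRCAP peak was 11244 bp, 52.9% had none within 10 kb, and 161 peaks had none within 100 kb. A SRCAP peak within 200 bp accompanied 5.19% and one within 1 kb accompanied 17.9% (16.5% to 19.3%). GFP-only peaks away from promoters had a SRCAP peak within 1 kb less often, in 9.67% (9.09% to 10.3%), while SRCAP-only promoter peaks had a GFP peak within 1 kb in 16.8% (15.5% to 18.2%). At the edge of the definition, 23 GFP-only promoter peaks lay within 20 bp of a SRCAP peak with a median score of 34, among them Smarcb1 and Cdt1, whose peaks touched one without overlap, and 25 shared promoter peaks overlapped by 20 bp or less with a median score of 31. At the ends of the promoter window, 14 GFP-only peaks lay in the outermost 20 bp upstream and 22 in the last 20 bp downstream, and 47 GFP-only peaks lay within 20 bp outside a window.

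**Figure D3:**
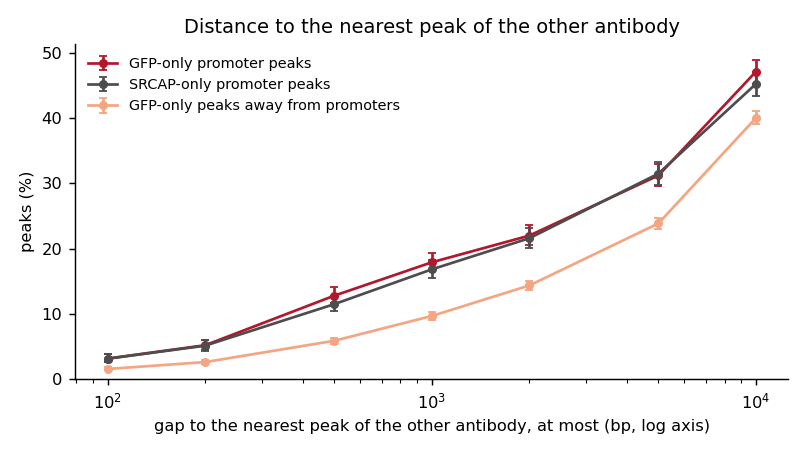
Cumulative percent of peaks with a peak of the other antibody within a given gap (bp, log axis), with 95% Wilson intervals, for GFP-only promoter peaks, SRCAP-only promoter peaks and GFP-only peaks away from promoters. At 1 kb the values are 17.9%, 16.8% and 9.67%.

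Where a SRCAP peak did lie close by, it mostly lay on the side of the TSS. SRCAP promoter peaks themselves lay near the TSS, with 77.5% of the shared and 68.4% of the SRCAP-only ones in the SRCAP list within 250 bp. GFP-only peaks by definition do not overlap them, so the directions below are partly set by that placement. No baseline was computed. Among 390 GFP-only peaks at one-way protein-coding promoters with a SRCAP peak within 1 kb, 232 had their midpoint at or upstream of the TSS, and in 79.7% of these (74.1% to 84.4%) the SRCAP peak lay in the downstream direction. Of the 158 with a midpoint downstream of the TSS, the SRCAP peak lay in the downstream direction in 22.8% (16.9% to 29.9%). In the first set the median SRCAP midpoint was 10 bp downstream of the TSS.

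GFP-only promoter peaks were poorer in CpG dinucleotides than the other promoter peaks. In 500 bp at the midpoint the median GC content was 53.0%, against 56.2% for shared and 57.0% for SRCAP-only promoter peaks. CpG-rich windows, with a GC content of at least 55% and an observed over expected CpG ratio of at least 0.6, made up 23.0% of GFP-only promoter peaks (21.5% to 24.6%). The share was 41.9% for shared (difference -18.8 points, -20.8 to -16.8) and 41.4% for SRCAP-only promoter peaks (difference -18.4 points, -20.8 to -16.0), and only 1.49% for GFP-only peaks away from promoters. The difference from shared peaks ran from -20.2 to -15.4 points over the score ranges. It was also present at protein-coding genes alone, at 26.0% against 45.2%, and at noncoding genes alone, at 6.88% against 12.7%. Windows with a ratio under 0.35, as promoters without a CpG island have, made up 29.2%, against 14.2% of shared peaks.

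The SP/KLF, NRF1 and NFY motifs were rarer at GFP-only than at shared or SRCAP-only promoter peaks. Exact letters were searched on both strands in 200 bp at the midpoint. The SP/KLF motif GGGCGGGGC, the GC box of the SP and KLF zinc finger factors, was found in 2.96% of GFP-only peaks, against 8.89% of shared peaks (difference -5.92 points, -6.87 to -4.94), 8.07% of SRCAP-only peaks and 6.32% of windows at all annotated TSSs. The NRF1 motif GCATGCGC, bound by a factor known for genes of mitochondrial function, was found in 18 GFP-only peaks or 0.635%, against 2.28% of shared peaks (difference -1.64 points, -2.12 to -1.13), 4.11% of SRCAP-only peaks (difference -3.47 points, -4.30 to -2.71) and 1.57% at all TSSs. The NFY motif GATTGGC, a form of the CCAAT box, was found in 2.89%, against 8.38% of shared peaks (difference -5.49 points, -6.41 to -4.52), 4.88% of SRCAP-only peaks and 3.53% at all TSSs.

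The lower shares were also seen within CpG-rich windows alone, where GC content and distance from the TSS were not matched. Within CpG-rich windows the SP/KLF motif was found in 6.28% of GFP-only and 14.7% of shared peaks, the NRF1 motif in 0.919% and 3.57%, and the NFY motif in 5.36% and 10.4%. Within 250 bp of the TSS the NRF1 motif was found in 0.918% of GFP-only peaks (0.557% to 1.51%), 2.63% of shared peaks (2.19% to 3.15%) and 5.49% of SRCAP-only peaks (4.56% to 6.59%). Over the score ranges the differences from shared peaks kept their direction for SP/KLF (-5.90 to -3.85 points) and NRF1 (-2.95 to -1.19 points), whereas that for NFY ran from -6.39 to 0.38 points.

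The TATA motif TATAAAA was the only 1 of the 14 with a higher share at GFP-only promoter peaks whose interval left out 0. It was found in 2.29%, against 1.09% of shared peaks (difference 1.21 points, 0.63 to 1.87), 1.26% of SRCAP-only peaks and 3.02% at all TSSs, and the difference from shared peaks ran from 0.93 to 1.41 points over the score ranges. In CpG-rich windows alone it was found in 0.613% of GFP-only and 0.406% of shared peaks, with overlapping intervals. The ETS (CCGGAAGT), ZNF143 (ACTACAATT), YY1 (AAGATGGCG) and OCT (ATGCAAAT) motifs had lower shares than at shared peaks, by 1.01, 0.383, 0.490 and 0.671 points, with intervals that left out 0 by small margins. For CREB/ATF (TGACGTCA), the E-box (CACGTG), ESRRB (TCAAGGTCA), CTCF (CCACNAGGG), AP1 (TGANTCA) and E2F (TTTCCCGC) the interval of the difference from shared peaks held 0. CREB/ATF, the E-box and AP1 read the same on both strands, and none of these exact words says that a factor was bound.

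**Figure D4:**
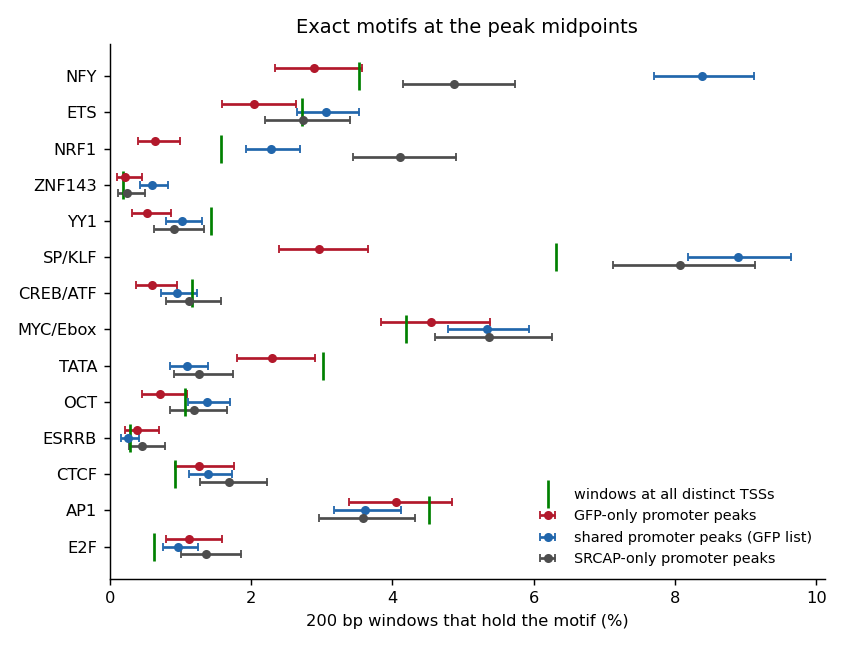
Percent of 200 bp windows that hold each of 14 exact motifs, with 95% Wilson intervals, at GFP-only, shared and SRCAP-only promoter peaks. Green bars show windows at all annotated TSSs. For SP/KLF, NFY and NRF1 the GFP-only values of 2.96%, 2.89% and 0.635% lie to the left of both other groups.

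The highest scoring GFP-only promoter peaks with these motifs lay at Fanca for NFY (score 110), a gene of the Fanconi anaemia repair pathway, at Sirt6 for NRF1 (score 89), a chromatin deacetylase, at Esp8 for SP/KLF (score 91), which encodes a secreted peptide of the exocrine glands, and at Acp6 for TATA (score 94), a lysophosphatidic acid phosphatase. The Sirt6 window also lay upstream of the divergent gene Ankrd24. Zfp383 (score 109) held the highest scoring ETS motif, Vbp1 the highest scoring YY1 motif and Abi1 (score 68), an actin regulator, the highest scoring ZNF143 motif.

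A protein-coding gene had its promoter window around 84.6% of GFP-only promoter peaks (83.2% to 85.9%), against 89.8% of shared peaks, and the remaining 436 peaks lay at noncoding genes or pseudogenes alone. Divergent pairs of coding genes lay at 5.12%, against 9.52% of shared peaks, a difference of -4.40 points (-5.48 to -3.27) that ranged from -6.80 to 0.72 points over the score ranges. In all, 2459 of 21951 protein-coding genes, or 11.2%, had a GFP-only promoter peak, and 7683 had any GFP promoter peak. Of the 2459 genes, 1732 (70.4%, 68.6% to 72.2%) had no SRCAP promoter peak of any kind, against 64.4% of all protein-coding genes, and 431 (17.5%) also had a shared promoter peak. Most genes, 2330, had 1 GFP-only promoter peak and 122 had 2.

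GFP-only peaks at genes with another, shared promoter peak differed in place and sequence from those at genes without any SRCAP promoter peak. At protein-coding genes, 434 GFP-only peaks (18.1%) shared their gene with a shared promoter peak, 299 with a SRCAP-only promoter peak, and 1665 had no SRCAP promoter peak at their gene. The 434 were farther from the TSS, with 49.5% within 250 bp against 64.4% of the 1665 (difference -14.9 points, -20.1 to -9.67). They were more often downstream of the TSS, at 43.3% against 33.9% (difference 9.38 points, 4.25 to 14.6), and less often CpG-rich, at 16.4% against 28.1% (difference -11.7 points, -15.6 to -7.43). The 434 and the 1665 had close median scores, at 35 and 37. Genes of the 434 already held a shared peak, and 73.0% of shared promoter peaks lay within 250 bp of the TSS. A further peak that overlaps no SRCAP peak has less room there. How far this selection set the differences was not tested. The 1665 peaks without any SRCAP promoter peak at the gene were also less often CpG-rich than shared promoter peaks at coding genes, with a difference of -17.1 points (-19.6 to -14.5).

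Of 10 genes for subunits of the SRCAP complex itself, Actl6a and Yeats4 had 1 GFP-only promoter peak each, and 7 of the 10 had a shared one. The peak of Actl6a, the actin-like subunit BAF53A, had a score of 54 and lay 13 bp upstream of the TSS with its midpoint in a UTR, in a window of 65.2% GC, and its promoter had no SRCAP peak. The peak of Yeats4, the histone acetyl-lysine reader GAS41, had a score of 30 and lay in an intron 264 bp downstream, at a promoter that also had a shared peak. Of the H2A.Z genes H2afz and H2afv and the chaperone gene Anp32e, only H2afv had a GFP-only promoter peak, of score 45 and 350 bp downstream in an intron, 332 bp from the nearest SRCAP peak. The related Tip60 complex shares subunits with SRCAP, but its list of 11 genes left these out. Actl6a and Yeats4 were counted in the SRCAP list only. Of the 11 genes, 2 had a GFP-only promoter peak. With so few genes the intervals were wide, from 5.67% to 51.0% for the SRCAP list and 6.15% to 79.2% for the H2A.Z list. For the Tip60 list it ran from 5.14% to 47.7%. All of these intervals held the 11.2% of all protein-coding genes. Kat5, the acetyltransferase Tip60, had a peak of score 80, 29 bp upstream, and Epc1 a peak of score 116, 117 bp upstream and 235195 bp from the nearest SRCAP peak.

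Pluripotency genes had GFP-only promoter peaks at 5 of 26 (19.2%, 8.51% to 37.9%), an interval that holds the 11.2% of all protein-coding genes. Utf1, a chromatin-bound factor of undifferentiated cells, had a score of 54 and lay 122 bp upstream. Dppa2 and Dppa4, partner proteins encoded side by side, had scores of 35 and 25, and Dppa2 alone also had a shared peak. Tfcp2l1, a transcription factor of naive pluripotency, had a score of 34 with a SRCAP peak 258 bp away, and Nr5a2, a nuclear receptor, a score of 19. All 5 lay upstream of the TSS, from 115 bp upstream at Dppa2 to 729 bp upstream at Nr5a2. Of the 26 genes, 9 had any GFP promoter peak, 5 had a shared one and 8 had any SRCAP promoter peak. Pou5f1, Sox2 and Nanog were among the genes with no promoter peak in either list. Of 20 lineage genes 2 had a GFP-only promoter peak (10.0%, 2.79% to 30.1%), close to the 11.2% of all protein-coding genes. Pax6, the eye and neural regulator, had a score of 46 at 628 bp upstream, and Nodal, the mesendoderm ligand, a score of 34 at 841 bp upstream.

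Other gene lists were read against the 11.2% of all protein-coding genes, as counts only. Counts of genes without a SRCAP promoter peak are to be read against 70.4%, the share among all 2459 genes with a GFP-only promoter peak. Of 23 lists of at least 20 genes, 17 had a larger share and 6 a smaller one, and the interval left out 11.2% for 8 above and 3 below. Genes with any GFP promoter peak had a GFP-only one in 32.0%. Counted among such genes, 9 of the 17 lists fell below that value and 5 of the 6 lay above it, so the side on which a list lay often changed with the base. Cytosolic ribosomal protein genes had a GFP-only promoter peak at 16 of 84 (19.0%, 12.1% to 28.7%), led by Rps26 (score 119), Rps29 (114), Rps15a (70) and Rpl36a (54), and 13 of these 16 had no SRCAP promoter peak. Mitochondrial ribosomal protein genes had one at 16 of 78 (20.5%, 13.04% to 30.8%; 30.2% of those with any GFP promoter peak), led by Mrps35 (74), Mrps17 (73), Mrps23 (67) and Mrpl35 (64), and 15 of the 16 had no SRCAP promoter peak. Translation initiation factor genes had one at 10 of 55 (18.2%, 10.2% to 30.3%), led by Eif3f (90), and none of the 10 had a SRCAP promoter peak. Of 97 oxidative phosphorylation genes 12 had one (12.4%), led by Ndufb11 (84) on the X chromosome, while 56 had a shared promoter peak.

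Genes of chromatin regulators had a GFP-only promoter peak at 18 of 85 (21.2%, 13.8% to 31.0%), led by Smarcd1 (108), a BAF complex subunit, Sirt6 (89), Chd5 (59) and Kdm1a (58), the demethylase LSD1. Zinc finger genes named Zfp had one at 65 of 394 (16.5%, 13.2% to 20.5%), led by Zfp383 (109), Zfp977 (95) and Zfp1 (85), and 197 of the 394 had a shared promoter peak. Of the Zfp genes with any GFP promoter peak, 25.8% had a GFP-only one. Names of proteasome genes matched 50 genes, of which 8 had one, led by Psmb2 (100). The next, Psmc3ip (85), matched the name but encodes a recombination factor. Nucleoporin genes had one at 6 of 21 (28.6%, 13.8% to 50.0%), of which Nup50 (44) scored highest. Of these 6 genes, 1 lacked a SRCAP promoter peak. Developmental regulators of the Hox, Pax, Lhx, Nkx, Gata, Tbx and Fox families had one at 10 of 133 (7.52%, 4.14% to 13.3%), led by Foxo6 (76), and in 47.6% of those with any GFP promoter peak. Olfactory receptor genes had one at 1 of 1134 and vomeronasal receptor genes at 0 of 330, where the Wilson interval reached 1.15% and 3 counts would make a share of 0.909%.

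**Figure D5:**
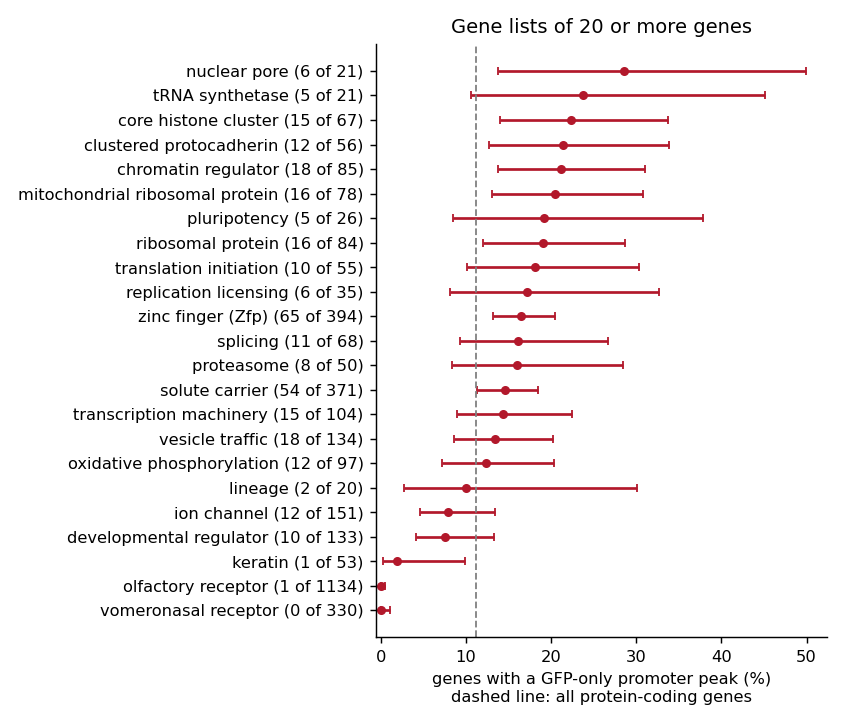
Percent of genes with a GFP-only promoter peak for 23 gene lists of at least 20 genes, with 95% Wilson intervals and counts. The dashed line is the 11.2% of all protein-coding genes, and nuclear pore, core histone and chromatin regulator genes lie above it and the receptor and keratin genes below.

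The X chromosome stood out by the share of its GFP promoter peaks that were GFP-only, not by their number. It held 0.453 GFP-only promoter peaks per Mb, against 0.793 on chromosome 6 to 1.91 on chromosome 11 among the autosomes. Shared promoter peaks were few there as well, at 60, against 153 on chromosome 18 to 535 on chromosome 7. Of 134 GFP promoter peaks there, 74 were GFP-only (55.2%, 46.8% to 63.4%), against 32.1% of 8579 on the autosomes, a difference of 23.1 points (14.6 to 31.3). The difference was present among scores of 13 to 34, at 79.4% against 60.7%, and among scores of 35 and above, at 47.0% against 22.4% (difference 24.6 points, 15.1 to 34.4). The median score of the GFP promoter peaks was 28 on both in the lower range. In the upper range it was 54 on the X chromosome and 64 on the autosomes, so score was not matched there. The SRCAP list had no such excess of its own peaks on the X chromosome, where 24 of 84 promoter peaks were SRCAP-only (28.6%, 20.02% to 39.0%), against 32.5% on the autosomes. X-linked GFP-only peaks named above include Rp2, Vbp1, Rpl39, Rpl36a and Ndufb11, and Taf1 (56) and Med12 (47), of the general transcription factor TFIID and of the Mediator complex, had one as well. The 74 peaks had scores from 17 to 140 with a median of 43, and 29.7% of them were CpG-rich. Among the autosomes the GFP-only share ran from 26.9% on chromosome 8 to 38.1% on chromosome 18. Chromosome 8 differed from the other autosomes by -5.67 points (-9.16 to -1.90), an interval that does not allow for its being the lowest of them.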

How the data were processed

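CUT&RUN was performed with 1 library per antibody in SYAT cells. The labels give 100000 cells for each library, fixation for 5 min with 0.1% formaldehyde, a 50-fold antibody dilution and paired reads of 75 nt. The submitters' processing notes name STAR, Picard and MACS2 with the builds mm10 and dm6, without roles, and peak names carry a single library, so peaks were not called on pooled reads. The authors deposited the position and a whole-number score of each peak. For ChIP-Seq and CUT&Tag the study's methods and supplement describe keeping uniquely mapped reads and calling against an input. Whether this held for CUT&RUN, and the meaning of the score, are not given in the sources used here. The methods mention the GFP antibody under CUT&Tag, so for the GFP library its label was followed. How these choices affected the lists was not tested.

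Overlap of at least 1 bp was computed in Python 3.11.15 (numpy 2.4.6, pandas 2.3.3) and checked with bedtools 2.31.1, which gave the same 12580 GFP-only peaks. The distance of a peak is that of its midpoint to the nearest of 141767 transcript starts, signed by strand, and a bidirectional promoter holds a divergent coding pair at most 1000 bp apart. GC content, CpG ratio and printed sequence come from the RefSeq copy of GRCm38, and 26 gene lists were set by symbol. Shares carry 95% Wilson intervals and differences of shares Newcombe intervals (scipy 1.17.1). They reflect counting error alone, as neither peaks nor genes are replicates. Steps were tested on simulated data. Named peaks were the 10 highest scores, the 5 widest, the highest score per motif, the genes with the most peaks (not reported here), all peaks at SRCAP, Tip60, H2A.Z, pluripotency and lineage genes, and up to 4 per other list. Genes at the edges of the definition, for the printed sequences and Taf1, Med12 and Psmc3ip were chosen after their values were seen. The regions and lists were chosen with earlier results of these data known.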

Additional observations from a re-analysis of the deposited data

How the results depend on the processing

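No paired analysis was possible because there was 1 library for each antibody and no result comes from a test. Of 61 values recomputed under alternatives, 29 stayed within the interval of the value reported (for counts, within 1.5 times) and 32 moved. The CpG-rich share of GFP-only promoter peaks was below that of shared ones under all 9 alternatives (-20.03 to -11.0 points), whereas the downstream difference was 0.24 points among GFP peaks at or above the median score. Absences are limited by the threshold of the lists and their unknown depth. The cause of these shifts, beyond the different peaks each definition admits, was not tested.

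With windows of 2500 bp either side of the TSS there were 4520 peaks, of which 80.7% lay at coding genes, 46.3% downstream, 15.8% in CpG-rich sequence and 29.3% at genes with a shared peak, and 16.3% of coding genes had one. Keeping GFP peaks at or above the median score left 839 peaks, with a median score of 59, 30.5% downstream and 13.3% near a SRCAP peak, at 3.38% of coding genes, and 3 motifs in place of 7 were below and 2 in place of 1 above their share at shared peaks. Counting sharing only from a reciprocal overlap of 50% gave 86.0% at coding genes, 27.8% CpG-rich, 44.0% with a SRCAP peak within 1 kb, 11.7% at genes with a shared peak and 16.4% of coding genes. Requiring no SRCAP peak within 500 bp gave 5.87%, 14.3% and 9.68% for the last 3. Protein-coding TSSs alone gave 31.9% downstream, 28.9% CpG-rich, 13.2% at genes with a shared peak and 9.85% of coding genes. Counting any base in the window gave 37.9% downstream, 20.2% and 12.0%. The CpG-rich share was 20.04% in 200 bp and 11.5% at a ratio of 0.75, 2 motifs were above in 500 bp, and 10.3% of coding genes had a peak without chromosomes 8, X, Y and the mitochondrial one.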

Other observations

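Clustered protocadherin genes, which encode cell adhesion proteins of neurons from arrays of single-exon promoters, had a GFP-only promoter peak at 12 of 56 (21.4%, 12.7% to 33.8%). Of the 12 peaks, 11 lay downstream of the TSS, against 36.0% of all GFP-only promoter peaks. In this list 10 genes had a shared promoter peak, and the positions of those peaks were not compared. Scores of the 12 GFP-only peaks ran from 13 to 86 with a median of 33.5, led by Pcdhgb4 (86), Pcdhga8 (70), Pcdhb16 (60) and Pcdhb19 (41). None of the 12 genes had a SRCAP promoter peak, as was so for 70.4% of all 2459 genes with a GFP-only promoter peak. Replication-dependent histone genes, which lie in clusters and are transcribed in S phase, had a GFP-only promoter peak at 15 of 67 (22.4%, 14.1% to 33.7%). These were 12 distinct peaks, some of which served a divergent pair such as Hist1h2bf and Hist1h2ad (43). The highest, at Hist1h2bh and Hist1h3f, had a score of 65, and 12 of the 15 genes had no SRCAP promoter peak. Members of such arrays are similar in sequence, and the study's methods keep only uniquely mapped reads for ChIP-Seq and CUT&Tag, without saying so for CUT&RUN. Solute carriers had a GFP-only promoter peak at 54 of 371 (14.6%), led by Slc6a16 and Slc7a3 (72 each), Slc25a15 (65) and Slc7a1 (64), the cationic amino acid transporter. Ion channel genes had one at 12 of 151 (7.95%; 52.2% of those with any GFP promoter peak), led by Kcnn1 and Cacng4 (68 each), Kcnn3 (61) and Cacna1a (54).

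The 436 GFP-only promoter peaks at noncoding genes alone were nearest to lincRNA genes in 141, processed pseudogenes in 73, antisense genes in 58 and processed transcripts in 47. The lincRNA Rmst, known from neural differentiation, had a peak of score 93, 226 bp upstream of the nearest TSS, and Pisd-ps2, a transcribed pseudogene, one of score 115. Vesicle traffic genes had a GFP-only promoter peak at 18 of 134 (13.4%), led by Snx16 (88), and splicing genes at 11 of 68 (16.2%), led by Snrpa (65). Transcription machinery genes had one at 15 of 104 (14.4%), led by Polr2c (81). Replication genes had one at 6 of 35 (17.1%), led by Mcm5 (54), and tRNA synthetase genes at 5 of 21 (23.8%), led by Rars (71). The interval of each of these shares held the 11.2% of all protein-coding genes. Krt71 (28) was the only 1 of 53 keratin genes with a GFP-only promoter peak (1.89%, 0.334% to 9.94%).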
